A study of Rattus norvegicus with 12 samples.

Results

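The genes described here are 10 rat genes picked for a difference between the Low Pain (LP) and High Pain (HP) genetic sub-lines in dorsal root ganglia: Sgcb, Fam111a, Scaf1, Mfsd5, Ptf1a, Pik3r3, Tnfrsf14, Tmem41a, Aplp1 and Fam89a. They are 10 of the 10411 genes with a named probe set on the array, and each of them has 1 probe set, so no second probe set of the same gene could be set beside it. The question was whether each line difference was there after sham surgery too or appeared mainly after nerve injury.

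Ganglia at L4/L5 were taken from adult male Sprague Dawley rats, and 12 Affymetrix arrays of total RNA form 4 groups of 3. The groups are LP rats 3 days after ligation of the L4 and L5 spinal nerves (LP SNL), HP rats after the same ligation (HP SNL), LP rats after a sham operation that left the nerve undamaged (LP sham) and HP rats after sham (HP sham). The sample titles give the 3 days for the SNL groups only, so they do not show whether SNL and sham were matched in time. The labels do not say how the lines were bred, or whether the 3 arrays of a group stand for 3 animals or for pooled ganglia; a p-value below therefore weighs a difference only against array-to-array spread, part of which may be technical. A lower signal in such bulk RNA cannot tell fewer cells of a type from less RNA per cell.

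Dorsal root ganglia hold the cell bodies of sensory neurons, wrapped by satellite glia, with Schwann cells, resident macrophages and vessels. Tying a spinal nerve cuts these neurons off from the periphery, and macrophages gather in the ganglion in the following days.

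Markers bore out the labelled tissue. The summed signal of 13 measured sensory neuron markers was 45640 to 51514 in LP SNL and 51429 to 54366 in HP SNL, with 57393 to 65035 in LP rats and 60749 to 64728 in HP rats after sham. The sum over 10 satellite glia and Schwann cell markers was 44112 to 46291 in LP SNL and 50031 to 51388 in HP SNL, without overlap, and 43137 to 49865 in LP sham and 40180 to 47234 in HP sham. Sums over 13 macrophage markers were 9529 to 10853 in LP SNL and 9928 to 11569 in HP SNL, with 4581 to 5157 in LP rats and 4936 to 5546 in HP rats after sham. No marker of these 3 lists was at 0 or lay under the array's 25th percentile on all arrays of a group. The beta-actin 3' to 5' ratio, a measure of RNA integrity, was 1.113 to 1.125 in LP SNL and 1.118 to 1.342 in HP SNL, with 0.993 to 1.877 in LP rats and 1.483 to 1.847 in HP rats after sham. The part of the marker shifts in the results below was not tested. With the actin ratio as a covariate, chosen after seeing the data, the line differences of all 10 genes described here kept their sign and moved by less than 1 replicate SD after SNL and after sham, for example to 4.22 for Sgcb after SNL, against 4.33 without it.

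Signals are linear array units, and differences are given as LP minus HP, or SNL minus sham, on the scale of log2(signal + 1) with the standard error (SE) from 1 limma fit of all 12 arrays. In that fit all 10 genes passed an adjusted p of 0.05 for LP against HP after SNL, 6 higher and 4 lower in LP, where 18 of 10411 genes or 0.173% passed, 0.0864% higher and 0.0864% lower. After sham, 1 of the 10 passed, Scaf1, where that gene was the only call or 0.00961% of genes. The genes were chosen by these line differences, LP against HP after SNL and after sham, so these are described without a test and support nothing. Just inside the threshold after SNL lay Tmem41a with a log2 difference of -1.10, and just outside it lay Cntn4, which is not among the 10, with 1.54. The count of 18 hung on single arrays: dropping LP SNL replicate 1, 2 or 3 left 1, 2 or 2 calls, dropping HP SNL replicate 2 or 3 left 3 or 10, and dropping HP sham replicate 1, 2 or 3 left 6, 1 or 8. The count of 1 after sham became 2 when HP sham replicate 3 was dropped, 3 for HP SNL replicate 3, and 0 for any of the 10 other arrays.

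**Figure D1:**
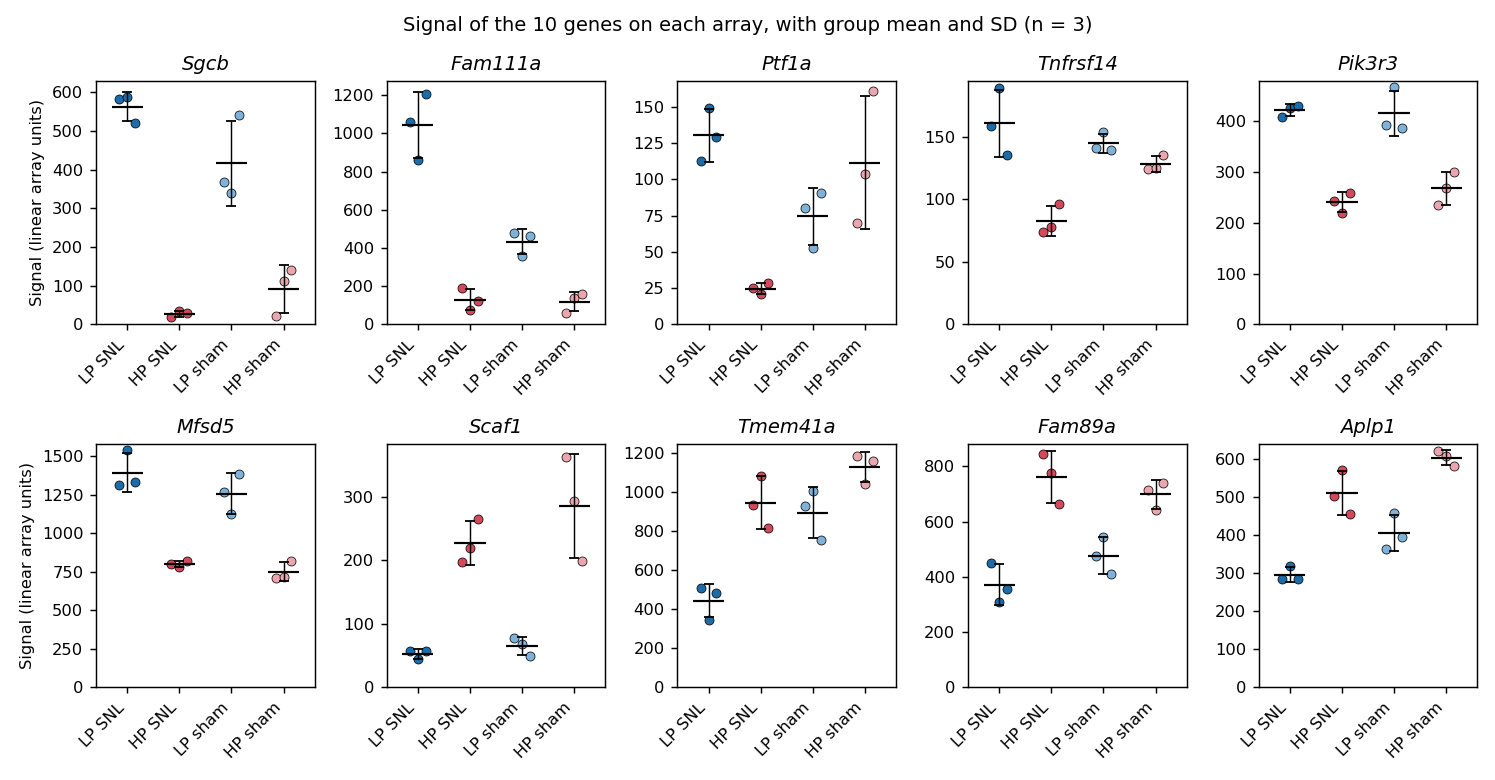
Signal of each of the 10 genes (linear array units, axes from 0) on every array of LP SNL, HP SNL, LP sham and HP sham. Points are arrays, horizontal lines are group means and bars are ± SD (n = 3). For Sgcb, Fam111a, Ptf1a, Tnfrsf14, Pik3r3 and Mfsd5 the LP SNL points lie above HP SNL, and for Scaf1, Tmem41a, Fam89a and Aplp1 they lie below.

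Tnfrsf14 and Pik3r3 act in signalling from the cell surface. Tnfrsf14, also called HVEM, is a receptor of the tumour necrosis factor family that binds the cytokine LIGHT and the inhibitory receptor BTLA. Its signal was 158.3, 188.5 and 135.3 in LP SNL, against 73.8, 77.9 and 96.5 in HP SNL. After sham it was 141.1, 153.4 and 139.1 in LP and 124.0, 125.1 and 135.5 in HP. The HP SNL arrays stood apart below all 9 others, each under its array's 25th percentile, while both sham groups and LP SNL lay close together. The line difference was 0.95 ± 0.14 after SNL and 0.17 ± 0.14 after sham, and the sham groups did not overlap. Within a line, ligation moved the log2 signal by 0.14 ± 0.14 in LP and -0.63 ± 0.14 in HP. T cells are among the cells known to carry this receptor. The summed signal of 9 T cell markers was 1764 to 2178 in LP SNL and 1792 to 1943 in HP SNL, with overlap. Of these markers, 3 in LP SNL and 3 in HP SNL were under the 25th percentile on all arrays of the group. The part of T cells in the Tnfrsf14 signal was not tested.

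Pik3r3 encodes a regulatory subunit of class I PI3 kinase, which makes the membrane lipid signal downstream of growth factor receptors. It gave 408.7, 425.7 and 430.7 in LP SNL and 244.1, 219.6 and 258.3 in HP SNL. After sham the values were 392.1, 467.0 and 387.4 in LP and 235.3, 269.1 and 299.7 in HP. All 6 LP arrays were above all 6 HP arrays, whatever the surgery. LP minus HP was 0.81 ± 0.12 after SNL and 0.63 ± 0.12 after sham.

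Sgcb, Aplp1, Tmem41a and Mfsd5 encode membrane proteins. Sgcb, beta-sarcoglycan, is a transmembrane subunit of the dystrophin complex, best known from striated muscle. Its signal was 581.4, 586.6 and 520.3 in LP SNL, against 19.7, 34.8 and 28.7 in HP SNL. After sham it was 367.4, 340.0 and 542.2 in LP, against 21.9, 111.7 and 141.4 in HP. No LP array came near an HP array in either surgery, and the highest HP value was the sham 141.4. The line difference of Sgcb was 4.33 ± 0.56 after SNL, a 20.1-fold difference, and 2.51 ± 0.56 after sham, and was 1.69 after sham without HP sham replicate 1. The HP SNL signals lay close to the 5th percentile of those arrays, 13.7 to 15.8, so the size of the ratio is uncertain. The summed signal of 13 skeletal muscle markers overlapped between the lines after SNL and was higher in HP after sham: 3830 to 4115 in LP SNL and 3612 to 3878 in HP SNL, then 3825 to 4216 in LP and 4412 to 5509 in HP after sham. Of these markers, 3 in LP SNL, HP SNL and LP sham and 2 in HP sham were under the 25th percentile on all arrays of the group. The part of muscle in the Sgcb signal was not tested.

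Aplp1 is an amyloid precursor-like protein, a cell adhesion molecule of neurons. Its signal was 285.0, 317.7 and 283.5 in LP SNL and 503.3, 570.2 and 454.9 in HP SNL. After sham it was 364.5, 457.7 and 394.4 in LP and 619.6, 607.9 and 580.8 in HP. The LP arrays were lower in both surgeries, with no overlap, by a log2 difference of -0.78 ± 0.12 after SNL and -0.58 ± 0.12 after sham.

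Tmem41a encodes a multi-span membrane protein related to Tmem41b, a lipid scramblase of the endoplasmic reticulum. It had 505.6, 344.4 and 479.2 in LP SNL, against 933.4, 1082.3 and 813.5 in HP SNL. After sham it had 927.1, 1001.1 and 751.0 in LP and 1182.2, 1036.5 and 1154.9 in HP. Here the LP SNL arrays stood apart below all others, the opposite of Tnfrsf14, where HP SNL stood apart. The line difference was -1.10 ± 0.17 after SNL and -0.34 ± 0.17 after sham, when LP and HP did not overlap but came within 1001.1 and 1036.5 of each other. Ligation moved the log2 signal by -1.02 ± 0.17 in LP and -0.26 ± 0.17 in HP.

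Mfsd5 belongs to the major facilitator family of transporters, and in humans it has been linked to the uptake of molybdate. Its signal was 1310.9, 1537.3 and 1329.6 in LP SNL and 798.9, 781.3 and 816.6 in HP SNL. After sham it was 1267.3, 1121.1 and 1381.3 in LP and 709.7, 718.1 and 819.5 in HP. Every LP array exceeded every HP array, and surgery made little difference to either line. LP exceeded HP by 0.80 ± 0.11 after SNL and 0.74 ± 0.11 after sham.

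Scaf1 and Ptf1a encode nuclear proteins. Scaf1 is an SR-related protein that binds the tail of RNA polymerase II and is linked to splicing. It gave 56.4, 43.9 and 56.9 in LP SNL, against 196.6, 220.0 and 265.2 in HP SNL. After sham it gave 77.5, 68.3 and 49.3 in LP and 363.2, 293.1 and 199.5 in HP. All 6 LP signals lay under the 25th percentile of their arrays and all 6 HP signals above it. LP minus HP was -2.09 ± 0.24 after SNL and -2.10 ± 0.24 after sham, 4.27-fold and 4.28-fold lower in LP.

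Ptf1a is a transcription factor of pancreatic acinar cells and of inhibitory neurons of the dorsal spinal cord and cerebellum. Its signals were 112.5, 149.3 and 129.5 in LP SNL, against 25, 21 and 28.4 in HP SNL. After sham they were 80.3, 52.7 and 91.0 in LP and 70.2, 103.6 and 160.9 in HP. The lines overlapped after sham, and after ligation LP lay above its sham group and HP below its own. The line difference was 2.35 ± 0.29 after SNL and -0.53 ± 0.29 after sham, and ligation moved the log2 signal by 0.82 ± 0.29 in LP and -2.05 ± 0.29 in HP. Most of these signals were dim: 2 of 3 arrays in LP SNL and 3 of 3 in HP SNL, and after sham 3 of 3 in LP and 2 of 3 in HP, lay under the array's 25th percentile, and the SNL difference was 1.84 with a pseudocount of 16. Of 12 measured markers of pancreatic acinar cells, 7 in LP SNL and 8 in HP SNL, and after sham 8 in LP and 9 in HP, were under the 25th percentile on all arrays of the group. Their summed signal was 1044 to 1273 in LP SNL and 821 to 1086 in HP SNL, and of 11 spinal cord and brain markers it was 2283 to 2496 and 2513 to 2976. The part of either list in the Ptf1a signal was not tested.

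Fam111a and Fam89a complete the set. Fam111a encodes a serine protease that in human cells binds the DNA replication clamp PCNA and restricts certain viruses. Its signal was 1059.5, 863.2 and 1208.5 in LP SNL, against 188.9, 77.3 and 123.8 in HP SNL. After sham it was 476.9, 358.8 and 465.3 in LP and 62.5, 137.0 and 159.9 in HP. The lines did not overlap in either surgery, and within LP the SNL arrays were all above the sham arrays. LP exceeded HP by 3.07 ± 0.38 after SNL, an 8.42-fold difference, and 1.94 ± 0.38 after sham. In the Fam89a probe set the signals were 451.6, 307.9 and 355.6 in LP SNL and 846.4, 775.5 and 662.1 in HP SNL. After sham they were 473.8, 544.1 and 411.4 in LP and 713.6, 640.6 and 740.5 in HP, again with every LP array below every HP array. The line difference of Fam89a was -1.04 ± 0.16 after SNL and -0.56 ± 0.16 after sham.

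Set side by side, the line difference had the same sign after SNL and after sham in 9 of the 10 genes, Ptf1a being the exception, and its size was larger after SNL in 9, Scaf1 being the exception by a margin far under its SE. LP and HP did not overlap after SNL in 10 of 10, 6 higher and 4 lower in LP, where 17.4% of all genes did not overlap, 9.10% higher and 8.33% lower. After sham they did not overlap in 9 of 10, 5 higher and 4 lower, where 15.6% of all genes did not, 8.19% higher and 7.40% lower. Without overlap in both surgeries and with the same sign there were 9 of the 10, and 3.63% of all genes. The genes were picked for these differences, so nothing is read from those counts. The median size of the line difference over the 10 was 1.07 after SNL and 0.60 after sham, where over all genes it was 0.15 and 0.15. All 10 passed the threshold after SNL and 1 after sham, so a larger size after SNL can come in part from the choice of genes. Growth of the line differences with injury is not read from these sizes, and the same limit holds for the percentages and interactions below.

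The sham difference as a percentage of the SNL difference, a description with no error of its own, was 100.2% for Scaf1 and 93.2% for Mfsd5, then 78.1% for Pik3r3 and 73.9% for Aplp1. Fam111a had 63.2%, Sgcb 58.0% and Fam89a 53.4%. At the low end stood Tmem41a with 31.0%, Tnfrsf14 with 18.1% and Ptf1a with -22.5%, where the sign turned. The difference after SNL less that after sham, the interaction, was 0.00 for Scaf1 (95% interval -0.74 to 0.75) and 0.05 for Mfsd5 (-0.29 to 0.39). It was 0.77 ± 0.19 for Tnfrsf14, -0.76 ± 0.24 for Tmem41a and 2.88 ± 0.41 for Ptf1a. Pik3r3, Aplp1 and Fam89a had 0.18 ± 0.17, -0.20 ± 0.16 and -0.49 ± 0.23, and Fam111a and Sgcb had 1.13 ± 0.53 and 1.82 ± 0.80, or 2.64 for Sgcb without HP sham replicate 1. These interaction values are built from the contrasts that chose the genes and were not tested for them. By limma no gene of the 10411 passed the interaction (0%), and 490 had an unadjusted p under 0.05.

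**Figure D2:**
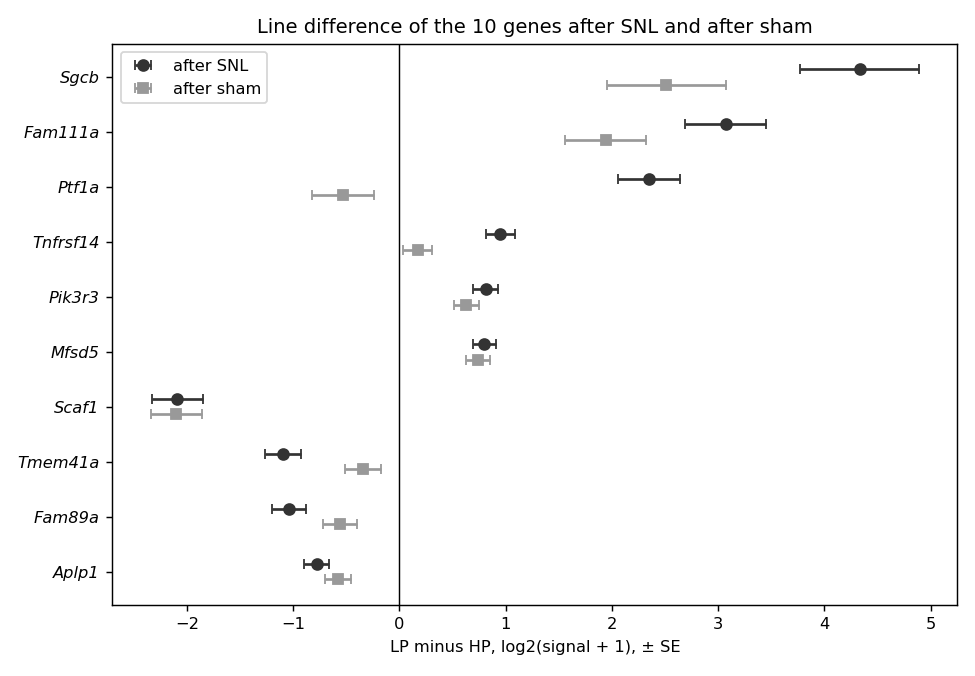
Difference LP minus HP on the log2(signal + 1) scale (x axis) for each of the 10 genes, after SNL (circles) and after sham (squares), with bars of ± SE. The markers of Scaf1 and Mfsd5 coincide, those of Tnfrsf14 and Tmem41a part, with the sham value nearer 0, and those of Ptf1a lie on opposite sides of 0.

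Within each line, SNL and sham did not overlap in LP for 4 of the 10 (31.2% of all genes): Fam111a and Ptf1a were higher and Tmem41a and Aplp1 lower after SNL. In HP they did not overlap for 3 (34.3% of all genes), Ptf1a, Tnfrsf14 and Aplp1, all lower after SNL. These counts are near the shares over all genes, and the within-line values, drawn in the plot of ligation effects, share arrays with the contrasts that chose the genes and are a description.

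The estimate of ligation averaged over the lines takes no part in the difference between lines, so it was tested. Its SE comes from the same array-to-array spread that entered the choice of the genes. The test is therefore not free of that choice, and its p-values may be too small. By limma, Tmem41a fell by 0.64 ± 0.12 on the log2 scale (adjusted p = 0.00342) and Aplp1 fell by 0.35 ± 0.08 (adjusted p = 0.0104). Those are 2 of the 10, where 24.8% of all genes passed, 13.0% higher and 11.8% lower, so the share is near the background. The median of the effect over the 10 was -0.27, and over all genes 0.01. Tmem41a and Aplp1 passed in all 20 alternatives, at adjusted p up to 0.0378 and 0.0339. Sensory neuron markers moved the same way: 7 of 13 fell and none rose, and the part of that shift in these decreases was not tested.

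The other 8 did not pass. Ptf1a had -0.62 ± 0.21 (adjusted p by limma 0.0529), Fam111a 0.70 ± 0.27 (0.0869) and Tnfrsf14 -0.25 ± 0.10 (0.0961), each with an unadjusted p under 0.05. Ptf1a is an average of opposite moves, without overlap in either line. The sign also differed between LP and HP for Tnfrsf14, Sgcb, Fam89a and Pik3r3. For Sgcb ligation moved the log2 signal by 0.46 ± 0.56 in LP and -1.35 ± 0.56 in HP. Some calls rested on single arrays. Without HP sham replicate 1 the count was 4, with Sgcb at -0.86 (limma adjusted p = 0.00771) and Ptf1a at -0.76 (limma adjusted p = 0.0154). Ptf1a also passed without LP sham replicate 2 (-0.73, limma adjusted p = 0.029), Fam111a without HP SNL replicate 2 (0.86, limma adjusted p = 0.0375), and Tnfrsf14 without HP SNL replicate 3 (-0.30, limma adjusted p = 0.0445) and LP SNL replicate 2 (-0.31, limma adjusted p = 0.037). Scaf1 had -0.29 ± 0.17, Sgcb -0.45 ± 0.40, Fam89a -0.12 ± 0.11, Mfsd5 0.12 ± 0.08 and Pik3r3 -0.06 ± 0.08. The 95% intervals were -0.05 to 0.29 for Mfsd5 and -0.25 to 0.12 for Pik3r3. For Fam89a and Tnfrsf14 they were -0.38 to 0.13 and -0.46 to -0.03. All of these leave out a 1.5-fold change in either direction.

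**Figure D3:**
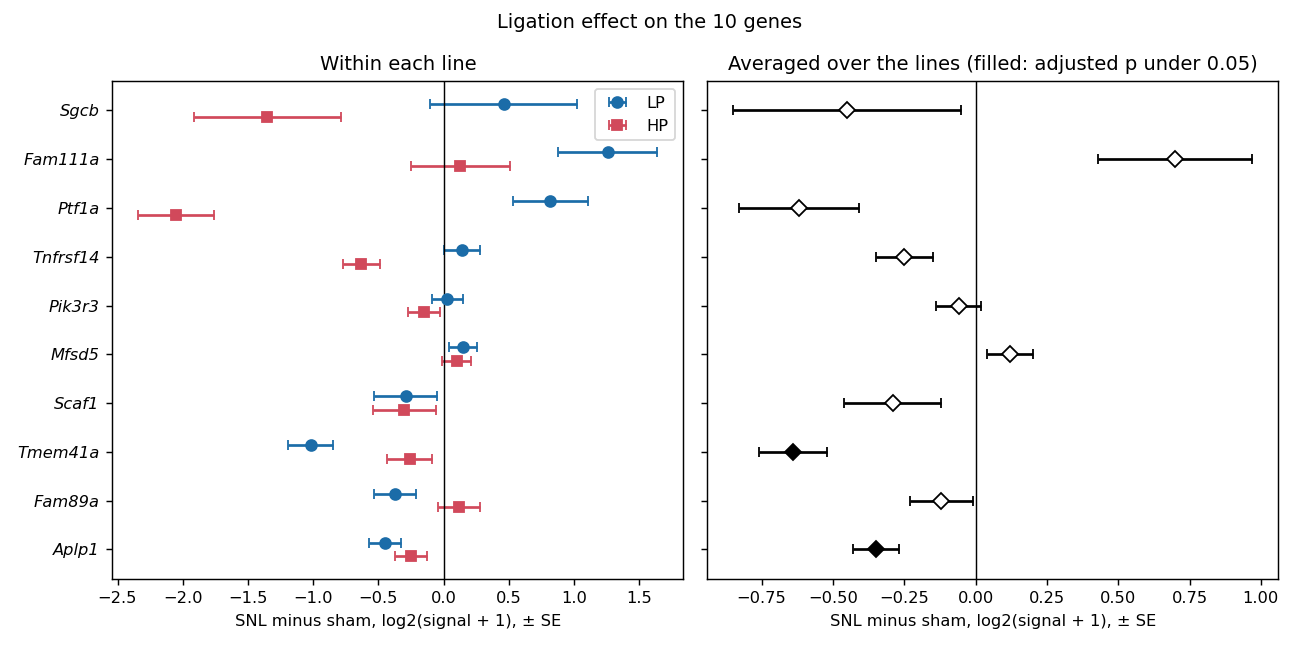
Difference SNL minus sham on the log2(signal + 1) scale (x axes, ± SE) for each of the 10 genes, within LP (circles) and HP (squares) in the first panel and averaged over the lines in the second, where filled symbols passed an adjusted p of 0.05 by limma. Only Tmem41a and Aplp1 are filled. The LP and HP symbols lie on opposite sides of 0 for Ptf1a, Sgcb, Tnfrsf14, Fam89a and Pik3r3. Of these, only Ptf1a had SNL and sham arrays apart in both lines.

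Relatives of the 10 genes were read in the same fit, to see whether a family or pathway moved with its member. Of 179 measured relatives in 10 lists, none passed for LP against HP after SNL (0.173% of all genes did) or after sham, and 19 and 18 had an unadjusted p under 0.05 by limma, as did 1110 and 1016 of the 10411 genes. For ligation averaged over the lines 43 of the 179 passed, or 24.0%, 26 higher and 17 lower, again near the 24.8% of all genes, and the counts per list below stand beside 13.0% of all genes that rose and 11.8% that fell. Among 25 tumour necrosis factor receptors, ligands and adaptors 4 rose and 2 fell with ligation. They included Tnfrsf1a, the main receptor of tumour necrosis factor (1.06 ± 0.10, limma adjusted p = 3.95e-05), and Ngfr, the low-affinity neurotrophin receptor (-0.71 ± 0.09, 0.000377). In the same contrast 11 of 13 macrophage markers rose and none fell, and their part in these changes was not tested. Of 25 PI3 kinase signalling genes 2 rose and 3 fell. Pdpk1, the kinase that activates Akt, had -0.50 ± 0.07 (limma adjusted p = 0.000874) and Pik3ip1, an inhibitor of PI3 kinase, -0.43 ± 0.07 (0.00107). Pik3r1 and Pik3r2, chosen with their values in view, had line differences of 0.00 ± 0.13 and -0.15 ± 0.52 after SNL. After sham these were 0.20 ± 0.13 and -0.82 ± 0.52.

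Of 13 dystrophin complex genes only Sspn, sarcospan, passed with ligation (0.25 ± 0.06, limma adjusted p = 0.0133). The other measured sarcoglycans Sgca and Sgce, chosen with their values in view, had line differences of 0.35 ± 0.27 and -0.13 ± 0.13 after SNL and 0.19 ± 0.27 and -0.01 ± 0.13 after sham. Dag1, dystroglycan, had 0.17 ± 0.09 after SNL and 0.14 ± 0.09 after sham. None of these 3 came near the Sgcb difference of 4.33. Among 24 genes of the amyloid precursor family and its processing 3 rose and 8 fell with ligation, where 13.0% of all genes rose and 11.8% fell, led by Apba1, an adaptor of the amyloid precursor protein (-1.16 ± 0.12, limma adjusted p = 7.35e-05), and Lrp1, an endocytic receptor (0.40 ± 0.06, 0.00101). The paralogs App and Aplp2, also chosen with their values in view, had line differences of -0.15 ± 0.09 and -0.04 ± 0.10 after SNL, against -0.78 for Aplp1. After sham they had -0.15 ± 0.09 and -0.07 ± 0.10.

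Of 27 splicing factors and polymerase tail binders 4 rose and 1 fell with ligation, with Pcif1, a cap methyltransferase that binds the polymerase tail, at 0.62 ± 0.08 (limma adjusted p = 0.000311) and the splicing kinase gene Srpk2 at -0.30 ± 0.06 (0.00443). Scaf4, Scaf8 and Scaf11, which share their name with Scaf1 and were likewise chosen with values in view, had line differences of 0.14 ± 0.16, 0.01 ± 0.13 and -0.21 ± 0.12 after SNL. After sham they had 0.19 ± 0.16, 0.23 ± 0.13 and 0.03 ± 0.12. Of 15 Ptf1a partners and fate genes Rbpj, the DNA-binding partner of Ptf1a and of Notch, passed with ligation (0.66 ± 0.13, limma adjusted p = 0.00442). Of 7 DedA family and scramblase genes 3 rose, among them the scramblase genes Ano6 (0.69 ± 0.06, limma adjusted p = 2.64e-05) and Plscr1 (0.69 ± 0.14, 0.00443), while Tmem41a fell. Among 23 transporters and molybdenum cofactor genes 1 rose and 3 fell, with Xdh, a molybdenum enzyme of purine breakdown, at 1.13 ± 0.10 (limma adjusted p = 3.03e-05) and the vesicle gene Sv2b at -0.74 ± 0.07 (6.98e-05). Mfsd10 and Mfsd11, chosen with their values in view, had line differences of -0.09 ± 0.14 and 0.36 ± 0.38 after SNL. After sham these were 0.05 ± 0.14 and 0.81 ± 0.38, beside 0.74 for Mfsd5. Group mean signals of Mfsd11 were dim, 31.8 to 67.1. Of 19 DNA replication genes 7 rose and none fell, where 13.0% of all genes rose, with Top2a, a topoisomerase of dividing cells, at 1.37 ± 0.21 (limma adjusted p = 0.00101) and the helicase subunit gene Mcm5 at 0.80 ± 0.12 (0.000867). Fam89b, the paralog of Fam89a and the 1 measured gene of its list, had -0.08 ± 0.10 after SNL and -0.03 ± 0.10 after sham.

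Neighbouring genes were examined next, to see whether a line difference extended along the chromosome. In the gene order of the rat assembly GRCr8, the 10 genes lie on 7 chromosomes: Aplp1, Scaf1 and Fam111a on 1, Pik3r3 and Tnfrsf14 on 5, and the others on 7, 11, 14, 17 and 19. The array carries no coordinates of its own, so only the order of genes was used. Among the 5 nearest measured genes on each side, 100 in all, none passed for LP against HP after SNL or sham by limma. LP and HP did not overlap for 25 of the 100 after SNL, beside 17.4% of all genes, and for 19 after sham, beside 15.6%. In both surgeries with the same sign this held for 6 of the 100, beside 3.63% of all genes. Of these, 3 had the sign of the gene they neighbour: Irf3, the nearest before Scaf1 (-0.43 after SNL and -0.37 after sham), Ptov1, also by Scaf1 (-0.51 and -0.61), and Dtx4, the nearest before Fam111a (0.15 and 0.32). The sign was opposite to the SNL difference of the gene in the other 3, Zfp91 by Fam111a (-0.62 and -0.77), Igfbp6 by Mfsd5 (-0.47 and -0.59) and Prtfdc1 by Ptf1a (-0.21 and -0.14). Zfp91, Ptov1, Igfbp6 and Prtfdc1 are named after their values were seen. Over the 20 nearest neighbours the line difference ran from -0.66 to 0.61 after SNL and from -0.80 to 0.43 after sham. The genes on either side of Sgcb, Usp46 and Dcun1d4, had 0.18 ± 0.19 and 0.10 ± 0.13 after SNL, and those on either side of Mfsd5, Rarg and Espl1, had 0.00 ± 0.17 and 0.39 ± 0.37.

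**Figure D4:**
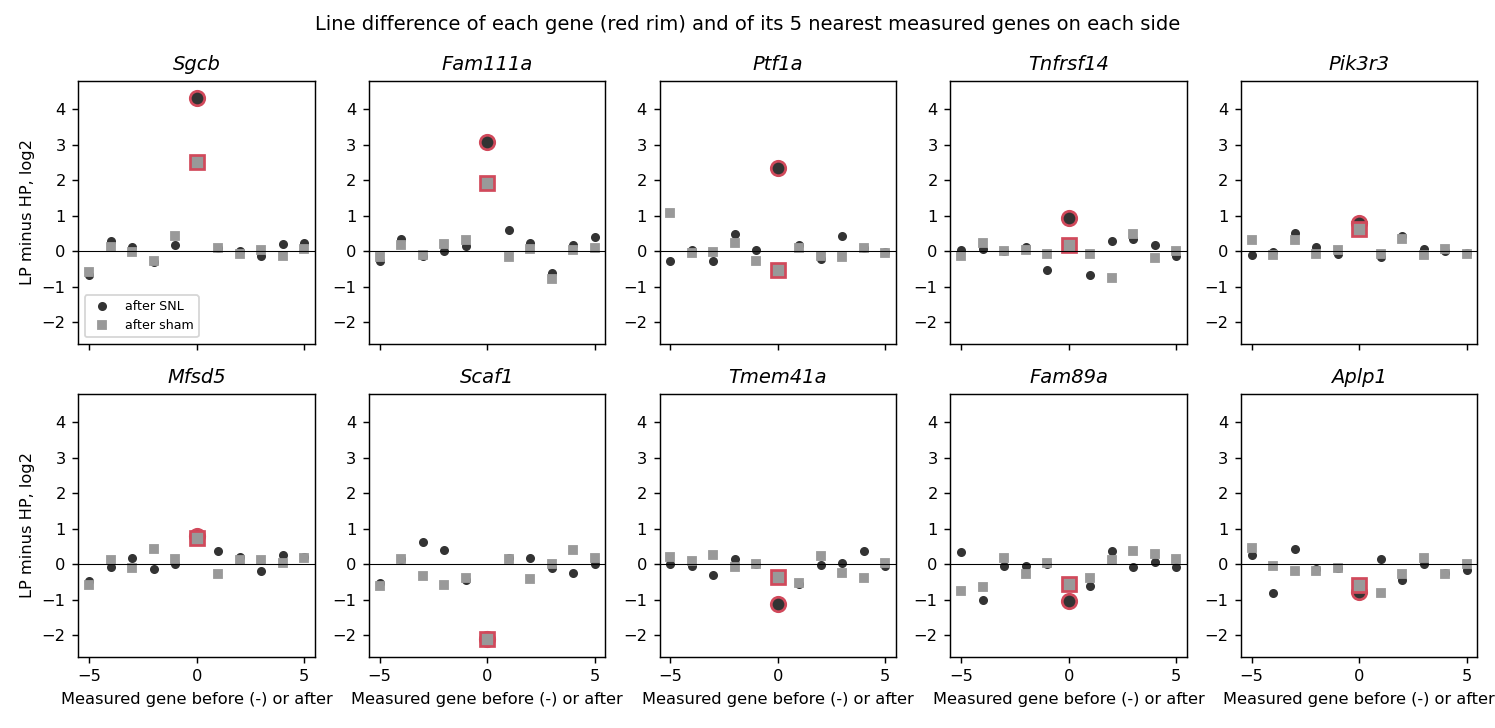
Difference LP minus HP on the log2(signal + 1) scale (y axis) after SNL (circles) and after sham (squares) for each of the 10 genes (large symbols with a red rim) and the 5 nearest measured genes before and after it in the GRCr8 gene order (x axis, rank, not distance). In the panels of Sgcb, Fam111a and Scaf1 the red-rimmed symbols stand clear of all neighbours.

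The genes whose log2 signal over the 12 arrays was most like that of 4 of the genes were found by the root mean square difference of the centred values, where 0 is identity. This measure uses the same arrays as the line differences that chose the genes. A like line difference in a near gene is thus partly built in and supports nothing. For Scaf1, which itself varied by 1.089 around its mean, the nearest were RT1-Bb, a class II histocompatibility gene, at 0.477 and RT1-T24-4, a class I gene, at 0.539. Their line differences were -1.94 and -1.60 after SNL and -1.93 and -1.91 after sham. For Mfsd5, which varied by 0.401, the nearest was Pik3r3, another of the 10, at 0.173, and then Slc39a7, a zinc transporter, at 0.182, with line differences of 0.66 after SNL and 0.64 after sham. Tnfrsf14 varied by 0.386 and had S100vp at 0.182 and Esyt2, an extended synaptotagmin, at 0.199. The line difference of S100vp was 0.76 after SNL and 0.04 after sham, while that of Esyt2 was 0.56 and 0.46, nearly alike in both surgeries. Tmem41a varied by 0.547 and had Cacnb3, a calcium channel subunit, at 0.221 and Asic3, an acid-sensing channel, at 0.250. Their line differences were -0.67 and -0.50 after SNL and -0.60 and -0.46 after sham, without the drop in size after sham seen in Tmem41a (-1.10 and -0.34).

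Promoter sequences, 250 bases before to 50 bases after the annotated start, were matched by symbol for 9 of the 10 genes in RefSeq on GRCr8. Shown here are those of Mfsd5 and of Pik3r3, the gene nearest to Mfsd5 by the measure above. Those of Scaf1 and Tmem41a, both lower in LP, are shown too. The line difference of Scaf1 was -2.09 after SNL and -2.10 after sham, and that of Tmem41a was -1.10 and -0.34. The 4 promoters were chosen after the values of their genes were seen. Each runs 5′ to 3′ on the gene's strand, and capitals mark matches on either strand to the GC box GGGCGG, the CCAAT box, the TATA box TATAAA, the AP-1 motif TGANTCA and the cAMP response motif TGACGTCA, which can overlap one another.
Mfsd5 promoter, chr7:135287433-135287732, plus strand: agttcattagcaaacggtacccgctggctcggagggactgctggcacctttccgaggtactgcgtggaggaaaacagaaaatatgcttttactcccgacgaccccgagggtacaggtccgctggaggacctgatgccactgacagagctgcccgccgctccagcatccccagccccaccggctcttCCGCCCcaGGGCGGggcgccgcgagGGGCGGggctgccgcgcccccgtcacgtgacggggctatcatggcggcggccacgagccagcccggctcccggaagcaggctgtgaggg
Pik3r3 promoter, chr5:134938356-134938655, plus strand: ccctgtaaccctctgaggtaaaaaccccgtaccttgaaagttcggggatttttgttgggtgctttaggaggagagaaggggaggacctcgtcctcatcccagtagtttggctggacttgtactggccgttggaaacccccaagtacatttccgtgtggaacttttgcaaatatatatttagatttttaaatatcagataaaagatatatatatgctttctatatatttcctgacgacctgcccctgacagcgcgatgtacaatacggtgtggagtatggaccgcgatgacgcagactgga
Scaf1 promoter, chr1:104634983-104635282, minus strand: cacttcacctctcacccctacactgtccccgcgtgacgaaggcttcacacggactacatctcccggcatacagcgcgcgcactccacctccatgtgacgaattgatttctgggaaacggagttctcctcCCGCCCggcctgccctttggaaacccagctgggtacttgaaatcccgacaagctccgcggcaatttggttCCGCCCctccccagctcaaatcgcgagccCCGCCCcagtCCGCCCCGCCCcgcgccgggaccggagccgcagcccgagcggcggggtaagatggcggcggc
Tmem41a promoter, chr11:92588247-92588546, plus strand: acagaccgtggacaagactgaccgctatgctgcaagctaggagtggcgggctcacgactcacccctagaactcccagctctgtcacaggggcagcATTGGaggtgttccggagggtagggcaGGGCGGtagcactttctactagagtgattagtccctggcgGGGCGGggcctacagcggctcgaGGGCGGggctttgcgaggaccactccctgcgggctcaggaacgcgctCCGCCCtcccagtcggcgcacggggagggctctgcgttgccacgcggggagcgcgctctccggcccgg

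The GC box GGGCGG matched 3 times in the Mfsd5 promoter, 5 times in that of Scaf1, 4 times in that of Tmem41a and not at all in that of Pik3r3, where 34.9% of 27457 promoters of the same length hold at least 1. The Mfsd5 and Pik3r3 windows had a GC content of 68% and 45.3% and 28 and 12 CpG dinucleotides. Background medians were 52.3% and 7. The windows rest on annotated starts, which were not checked. In Pik3r3 an ATG closely follows that start, so its window may not hold the promoter. No difference between the 2 promoters is read from these values. CCAAT, found in 37.7% of promoters, matched once in that of Tmem41a. The AP-1 motif TGANTCA, found in 7.33% of promoters, matched in none of these 4 and once in that of Sgcb, and the cAMP response motif TGACGTCA (1.91%) and the box TATAAA (14.3%) matched in none of the 9. A match describes the letters of the reference assembly, not of the LP or HP rats.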

How the data were processed

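Total RNA of 12 ganglion samples was measured on 1 Affymetrix array each. The deposited table holds a linear signal intensity for each of 15923 probe sets, ranging up to 13930.7. RMA is the tool named, without a version, per the submitters' processing notes. Yet the values are linear, and trimming 2% at each end gives a mean of 500.1 on all arrays, so the authors' steps are not settled. The median signal per array was 278.4 to 313.2, and the number of arrays limits the precision.

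Signals entered the analysis as log2(value + 1), because 109 of 191076 were below 1, and were not normalized again. Names came from the platform annotation, updated through RefSeq gene identifiers (GRCr8): 12783 probe sets had 1 gene and 312 several. A gene's probe set with the highest mean stood for it. The model, fitted with limma 3.58.1 in R 4.3.3, had a mean for each of the 4 groups, with two-sided tests and Benjamini-Hochberg adjustment over 10411 genes. Tested on simulated data for ligation averaged over the lines, the share of altered genes recovered was 52.2% at 1.5-fold, 77.6% at 2-fold and 95.5% at 4-fold. In that simulation 67, 67 and 66 of 10411 genes were altered, far fewer than the 24.8% called in the data. The adjusted threshold was therefore stricter there, so these shares are not the recovery in the data.

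The 10 genes, the gene lists and the rules were chosen with earlier results of these data known. Named besides the 10 were the strongest called relatives, up to 3 per list for the lines and 2 for ligation, the nearest genes on the chromosome and the most similar patterns; others are marked in the text. Same-numbered arrays were not paired: of 18 pairs across groups, 0 had a correlation of deviations over 0.1 (-0.16 to 0.10). Alternatives were a replicate block, removal of the 25% dimmest genes, a pseudocount of 16, quantile normalization, a trended robust variance, averaging the probe sets of a gene, testing each probe set by itself and leaving out each array; a covariate for the beta-actin ratio was chosen after seeing the data.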

Additional observations from a re-analysis of the deposited data

Results flagged for a closer look

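Ptf1a was singled out because ligation went with a higher signal on every LP array and a lower signal on every HP array than on the sham arrays of the same line. Its line difference after SNL less that after sham was 2.88 ± 0.41 on the log2 scale, and this difference was not tested, since Ptf1a was picked for its line difference. Such opposite moves without overlap in either line occurred in 22 of 10411 genes, or 0.211%, and in 1 of the 10. These moves share arrays with the line differences that chose Ptf1a, so nothing is read from how rare they are. Most of the Ptf1a signals were also dim, as described above, which limits the size of its differences.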

How the results depend on the processing

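The line differences of the 10 genes kept their sign after SNL and after sham in every alternative (19 or 20 per gene, since the dim filter removed Sgcb, Scaf1, Ptf1a and Tnfrsf14). Of 784 values of single genes 772 kept their call or stayed within 1 replicate SD, 4 moved by more and 8 passed the threshold where they had not. The interaction of Scaf1 (-0.19 to 0.24) and Mfsd5 (-0.03 to 0.12) changed sign around 0.

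The number of genes called by limma for LP against HP after SNL was 18. It was 7 with the replicate block, 39 without the dimmest genes, 52 with trended robust variance, 11 with the mean of probe sets and 9 with the actin ratio, and 1 to 26 with 1 array left out. After sham it was 1, and 0 with the replicate block, quantile normalization or the mean of probe sets. It was 5 without the dimmest genes, 6 with trended robust variance, 7 when each probe set was tested by itself, 3 with the actin ratio and 0 to 3 with 1 array left out. For the interaction it was 0, with 490 at an unadjusted p under 0.05, 1 with the actin ratio and 0 to 2 with 1 array left out. For ligation averaged over the lines it was 2583, and 2166 to 2498 with 1 array left out. Of the 10 genes 2 passed for that effect, and 2 to 4 with 1 array left out. Ptf1a passed it with the replicate block too (-0.62, limma adjusted p = 0.0451), which rests on numbers that do not pair the samples, and Fam111a passed without the dimmest genes (0.70, limma adjusted p = 0.047). Dim signals limit the ratios of Sgcb, Scaf1, Ptf1a and Tnfrsf14. The line difference of Tnfrsf14 after SNL, 0.95, was 0.78 with quantile normalization and 0.84 with a pseudocount of 16.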
